A study of Mus musculus with 4 samples.

Results

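Immediate early response genes are a small group of genes whose mRNAs appear quickly after a stimulus and are then rapidly lost. Their members were taken by gene symbol from the count table of an anti-YTHDF2 RNA immunoprecipitation sequencing (RIP-seq) experiment in mouse retina. The 10 members are Fos, Fosb, Jun, Junb, Jund, Egr1, Ier2, Atf3, Btg2 and Dusp1, out of 52550 genes in the table, and each symbol was found exactly once. RIP-seq compares the RNA that an antibody pulls down together with its protein (RIP) with the RNA of the starting lysate (input), and here it asked which transcripts YTHDF2 binds. Retinas of wild type C57BL/6 pups at postnatal day 0 were taken apart with papain, and an input and a RIP library were made from each of 2 biological replicates, which gives 4 libraries. Strain, genotype, age and dissociation were the same in all 4 libraries, so that the design holds no undissociated tissue against which an induction of early genes by the dissociation could be measured. A pulldown with control IgG is named in the methods of the study and was not analysed here. Nothing in the labels says whether the replicates came from separate animals, and the p-values measure the spread between these libraries.

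The products of the early genes fall into a few roles. Fos and Fosb pair with Jun, Junb or Jund to form the transcription factor AP-1, while Egr1 is a zinc finger transcription factor, Atf3 a stress-induced factor of the ATF family and Ier2 a small nuclear protein. Btg2 is an antiproliferative protein that works with the deadenylases which shorten poly(A) tails, and Dusp1 is a phosphatase that switches off MAP kinases. Many early mRNAs carry AU-rich elements, built around the pentamer AUUUA, in the 3′ UTR, and these elements are known for directing rapid decay. YTHDF2 is a reader of N6-methyladenosine (m6A) and destabilizes the mRNAs it binds, and m6A is laid down mainly in a short sequence context that includes GGACU.

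Both short sequences were looked up in the longest coding transcript of each gene in GENCODE M21 (GRCm38), since they are the elements for which early mRNAs and YTHDF2 targets are known. The pentamer ATTTA, written as DNA and read on the transcript strand with overlapping matches counted, occurred in the 3′ UTR of 9 of the 10 genes and was absent from that of Ier2. It occurred in 71.3% of the 11952 coding genes that were tested, so that its presence does not set the early genes apart. The longer form TTATTTATT occurred in 2 of the 10, Fos and Dusp1, and in 8.40% of the tested coding genes. The ATTTA count per 3′ UTR was 5 in Btg2, 4 each in Fos, Jun and Dusp1, 3 in Atf3, 2 each in Egr1 and Junb and 1 each in Fosb and Jund. The 30-base windows with the most ATTTA are shown for the 4 genes with the longest runs or most copies and for Junb, with ATTTA in capitals, all in the last exon and in the 3′ UTR. They lie at chr12:85477100-85477129 on the plus strand (Fos), and on the minus strand at chr4:95049207-95049236 (Jun), chr1:134076017-134076046 (Btg2), chr17:26506157-26506186 (Dusp1) and chr8:84977127-84977156 (Junb).
Fos: ttgtgttttcaATTTATTTAttaagatgga
Dusp1: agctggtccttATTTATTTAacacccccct
Jun: atcATTTAtaatcataggaaagATTTAgta
Btg2: aATTTAtttgtagatgtgtgcaatATTTAc
Junb: aatatatttgtgtATTTAacagggagggga

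In Fos and Dusp1 the capitals form 1 run in which a pair of pentamers shares a base, whereas in Jun and Btg2 the copies lie apart. The second sequence, GGACT, occurred in the transcripts of all 10 early genes and of 93.1% of the tested coding genes. Its density was higher in the early genes, with a median of 1.86 per kb against 1.04 per kb over the tested coding genes. Ier2 had the highest density, at 3.29 per kb, and Atf3 and Egr1 had the lowest, at 1.01 and 1.12 per kb. The GGACT nearest to the stop codon is shown in capitals within 25 bases of 3′ UTR for Jund, Ier2, Junb, Jun and Fos. These 5 are shown because their windows began within 150 bases after the stop codon. Windows of Egr1 were not taken, so that this rule was not applied to it. The windows lie at chr8:70700097-70700121 on the plus strand (Jund), chr8:84661953-84661977 on the minus strand (Ier2), chr8:84977259-84977283 on the minus strand (Junb), chr4:95050127-95050151 on the minus strand (Jun) and chr12:85476602-85476626 on the plus strand (Fos). No m6A was measured in these libraries, and a match is only a match of letters.
Jund: gcgcatgcgcGGACTagctgcggtg
Ier2: gccaggggaaGGACTgaggagcgag
Junb: ctcacacactGGACTccggcccgcc
Jun: tacacaagatGGACTgggttgcgac
Fos: tgggcctcaaGGACTtgcaagcatc

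The transcripts of the early genes are short and built of few exons. Their median length was 2049 nt against 3338.5 nt over the tested coding genes, and Jun, Junb, Jund and Ier2 consist of a single exon, as do 3.34% of the tested coding genes. Fosb, at 3782 nt, and Egr1, at 4484 nt, were the 2 members longer than that background median. GC content had a median of 55.8% in the early genes and 50.2% in the background, and was highest in Jund, at 67.1%. These features bear on the comparison of RIP with input, since across 11953 tested coding genes the log2 fold change had a Spearman correlation of 0.487 with transcript length and of 0.0620 with GC content. That correlation is across genes of the same 4 libraries and is given as a description.

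Total counts were 36236531 to 39499994 for inputs and 19530226 to 24903212 for RIP libraries. Overlapping ribosomal RNA genes took 55.0% to 55.5% of the input counts and 85.3% to 87.8% of the RIP counts, and protein-coding genes kept 2083594 to 4175459 counts. Markers of ganglion cells, progenitors, photoreceptor precursors, amacrine and horizontal cells were all detected in the inputs. Ganglion cell markers, 6 in number, summed to 27.1 and 20.7 FPKM in the inputs and to 8.29 and 6.10 FPKM in the RIP libraries. Of the cell types that can be rich in early mRNAs during dissociation, the 8 microglia markers summed to 0.924 and 0.737 FPKM in the inputs and 1.56 and 1.66 FPKM in the RIP libraries, and the 5 endothelial markers to 4.44 and 4.16 against 10.02 and 7.67 FPKM. Single markers were at 0 counts, among them Aif1 of microglia and Pecam1 of endothelium in both RIP libraries and Tek of endothelium in both inputs. Each input also had a microglia marker at 0 counts, though none was at 0 in both. Only 5 of the 8 microglia markers and 2 of the 5 endothelial markers had enough counts to be tested. The part of these cells in the results was not tested. In such bulk RNA, fewer cells of a type and less RNA per cell cannot be told apart.

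In the inputs, Egr1, Btg2 and Jund were the most abundant early mRNAs per transcript length, and Atf3 was almost absent. FPKM, the authors' reads per length and library size, was 23.9 and 18.8 for Egr1 in the inputs, 15.2 and 14.8 for Btg2 and 14.7 and 8.33 for Jund. Egr1 thus stood above Btg2 in both inputs, while Btg2 and Jund came close to each other in replicate 1. Jun followed at 8.56 and 7.67 FPKM, values that overlapped those of Jund. Fos at 2.497 and 4.59 FPKM, Ier2 at 2.90 and 3.60 FPKM and Dusp1 at 3.62 and 2.15 FPKM overlapped one another and had no order beyond the spread of the replicates. Junb came next at 0.962 and 0.935 FPKM, then Fosb at 0.461 and 0.361 FPKM and Atf3 at 0.0238 and 0.0381 FPKM.

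The order in the RIP libraries differed at the top. Btg2 led at 25.1 and 21.9 FPKM, followed by Jund at 15.2 and 10.2 FPKM and Jun at 12.2 and 8.27 FPKM. Egr1 stood at 5.35 and 3.22 FPKM, overlapping Fos (7.35 and 3.77 FPKM) and Ier2 (5.61 and 2.97 FPKM). It had thus gone from first place in both inputs to a place among the middle members in both RIP libraries.

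**Figure D1:**
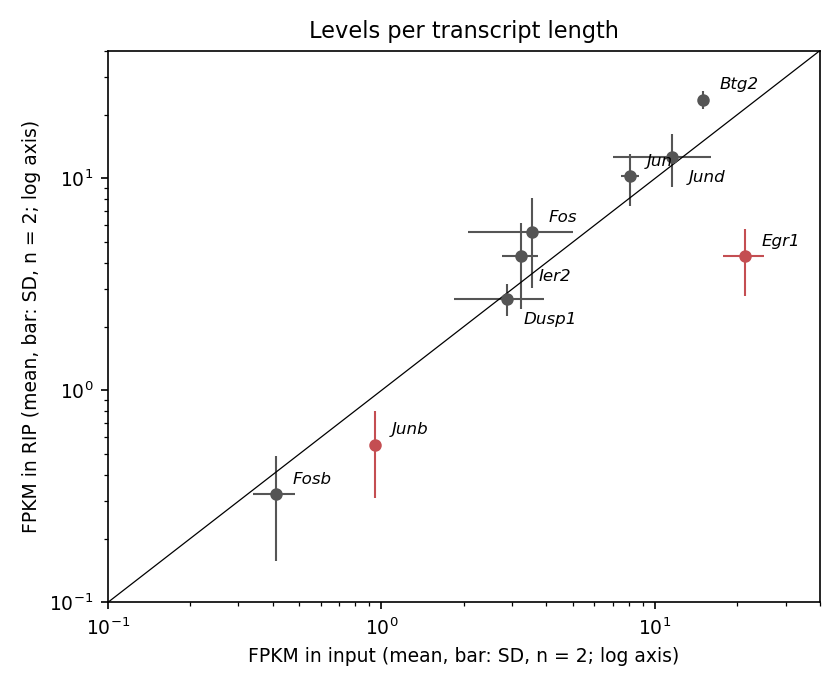
Mean FPKM of the 9 tested early genes in the inputs (x, log axis) and in the anti-YTHDF2 RIP libraries (y, log axis), with bars for the SD over 2 libraries; genes called depleted are red and the line marks equal FPKM. Egr1, at 21.3 FPKM in the inputs and 4.28 FPKM in the RIP libraries, lies farthest below the line, and Btg2, at 15.02 and 23.5 FPKM, lies above it.

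The RIP and input counts were compared with the quasi-likelihood test of edgeR after TMM scaling. Under this scaling a fold change says how a transcript fared relative to most of the 13632 tested ones, and it does not measure how much RNA was bound. Calls of enrichment needed a log2 fold change of 1 or more with an unadjusted p below 0.05, and calls of depletion needed -1 or less with the same p. Of the 10 early genes 9 passed the filter on low counts, and none of the 9 was called enriched, where 9.43% of all tested transcripts were. No member was higher at an unadjusted p below 0.05 either, and DESeq2 and the other alternatives also called 0 members enriched. Egr1 and Junb were called depleted, where 17.2% of all tested transcripts were, so that 2 of 9 is near the background. At a Benjamini-Hochberg adjusted p below 0.05 over all tested transcripts, Egr1 alone was lower and none was higher, against 9.78% and 3.48% of all tested transcripts. Both RIP libraries lay below both inputs for Egr1, Junb and Fosb, 3 of 9, as they did for 31.3% of all tested transcripts. They lay above both inputs for Btg2, 1 of 9, against 29.6% of all tested transcripts. The median log2 fold change of the 9 was -0.18, with 4 above 0 and 5 below 0, beside -0.05 over all tested transcripts and 0.04 over the protein-coding ones. The smallest two-sided p of an exact permutation test on 2 and 2 libraries is 0.333, and the calls therefore rest on the variance that the model borrows from other genes.

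**Figure D2:**
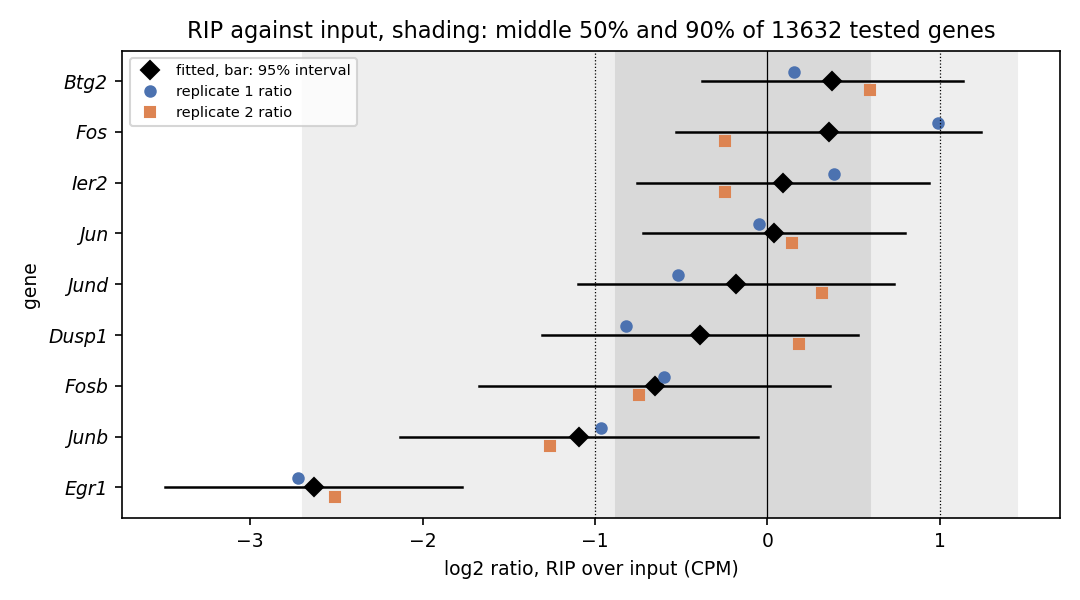
Log2 ratio of RIP to input (x) for each tested early gene (y), as the fitted value with its 95% interval and as the ratio within each replicate number; shading spans the middle 50% (dark) and 90% (light) of all tested transcripts and dotted lines mark -1 and 1. Egr1, at -2.63, lies near the 5th percentile of all transcripts (-2.69), and 7 of the 9 intervals include 0.

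Egr1 had the lowest ratio of RIP to input among the tested early genes. It lies on the plus strand at chr18:34859823-34864984 in GRCm38 and its longest coding transcript has 2 exons. It had 4451 and 3185 input counts and 510 and 392 RIP counts, or 134 and 92.8 CPM (counts scaled to 1000000 per library with TMM factors) against 20.2 and 16.3 CPM. Both RIP libraries were far below both inputs, and the gap between the groups was wider than the gap between the inputs. The means were 113 ± 28.8 CPM in the inputs and 18.3 ± 2.77 CPM in the RIP libraries (SD, n = 2 libraries each). The log2 fold change was -2.63 (SE 0.378, 95% interval -3.49 to -1.77, edgeR quasi-likelihood adjusted p = 0.00368), a 6.20-fold lower level. Within replicate 1 the log2 ratio of RIP to input was -2.72 and within replicate 2 it was -2.51. The call as depleted was made under each of the 16 alternatives run, with log2 fold changes from -3.21 to -2.10. The adjusted p was above 0.05 where a RIP library was left out, at 0.0893 without RIP replicate 1 and 0.104 without RIP replicate 2, fits whose spread comes from the inputs alone. The summed FPKM of the 6 ganglion cell markers was also lower in both RIP libraries. Of the 6, 1 was called depleted and none enriched, beside 17.2% and 9.43% of all tested transcripts. Depleted calls were also made for 2 of 5 progenitor markers, 1 of 4 amacrine and 1 of 4 horizontal cell markers. None of the 4 tested photoreceptor precursor markers was called. The part of any of these cells in the fall of Egr1 was not tested.

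A share within the early genes needs no scaling between libraries. Egr1 gave 47.4% and 44.3% of all counts on the 10 genes in the inputs but 12.3% and 10.3% in the RIP libraries. All 10 genes together took 2296 and 1720 of every 1000000 protein-coding counts in the inputs, against 1888 and 1823 in the RIP libraries, and the groups overlapped. Without Egr1, a sum chosen after its values were seen, the other 9 took 1207.6 and 957.5 on that scale in the inputs, against 1657 and 1634.7 in the RIP libraries. That order depends on the scaling, since after TMM scaling the same 9 genes summed to 148 and 117 CPM in the inputs, against 145 and 142 CPM in the RIP libraries, and the groups overlapped.

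**Figure D3:**
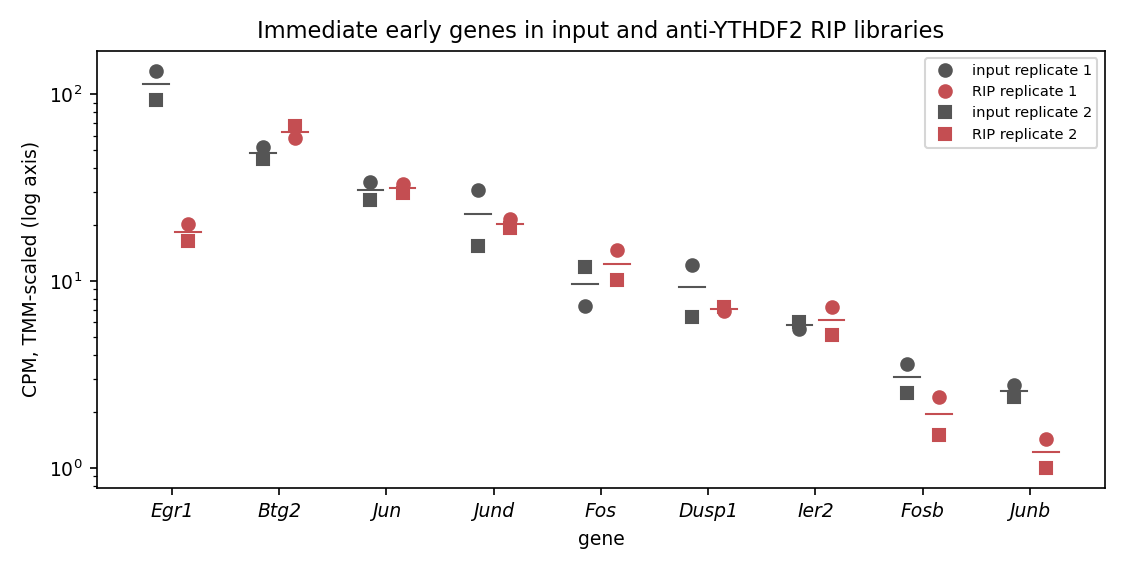
CPM after TMM scaling (y, log axis) of the 9 tested early genes in each library, with circles for replicate 1, squares for replicate 2 and lines for the group means; inputs are grey and RIP libraries red. Egr1 falls from 134 and 92.8 CPM to 20.2 and 16.3 CPM, while the inputs of Fos, Jund and Dusp1 lie far apart from each other.

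Among the partners of AP-1, the Jun family members differed from one another. Junb, on chromosome 8 and the rarest tested member by CPM, had 93 and 82 input counts and 36 and 24 RIP counts, or 2.79 and 2.39 CPM against 1.43 and 0.998 CPM. Both RIP libraries were lower than both inputs. The log2 fold change was -1.09 (SE 0.456, 95% interval -2.13 to -0.05, edgeR quasi-likelihood adjusted p = 0.151), which passed the limits for a call and not the adjusted threshold. The call of Junb was not made with DESeq2 (-1.09), nor on library size alone (-0.73), on log2(FPKM + 0.1) (-0.73) or log2(FPKM + 1) (-0.33), or with length and GC trends taken out (-0.90). It was also not made without input replicate 1 (-0.97), without RIP replicate 1 (-1.27) or without RIP replicate 2 (-0.77).

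Jun had 1135 and 925 input counts and 830 and 715 RIP counts, or 34.0 and 26.96 CPM against 32.9 and 29.7 CPM. The RIP values lay between the input values. Its log2 fold change was 0.04 (SE 0.334, 95% interval -0.72 to 0.80, edgeR quasi-likelihood adjusted p = 0.953), an interval that leaves out a change of 1 on the log2 scale in either direction. Jund, the family member that is least dependent on a stimulus, had 1019 and 526 input counts and 538 and 460 RIP counts, or 30.6 and 15.3 CPM against 21.3 and 19.1 CPM. Its inputs differed by -0.996 on the log2 scale (replicate 2 against replicate 1), and the RIP values again lay between them. The log2 fold change of Jund was -0.18 (95% interval -1.10 to 0.73, edgeR quasi-likelihood adjusted p = 0.805). Whether Junb differs from Jun or Jund in its fold change was not tested.

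Fos and Fosb had fold changes of opposite sign, and neither passed the test. Fos had 245 and 409 input counts and 368 and 242 RIP counts, or 7.35 and 11.9 CPM against 14.6 and 10.1 CPM. RIP replicate 1 was the highest library and RIP replicate 2 lay below input replicate 2, so that the groups overlapped. The log2 ratio of RIP to input was 0.99 within replicate 1 and -0.24 within replicate 2, and the fitted log2 fold change was 0.36 (SE 0.388, 95% interval -0.53 to 1.24, edgeR quasi-likelihood adjusted p = 0.586). Fosb, the paralog with a long 3′ UTR and a single ATTTA, had 120 and 86 input counts and 60 and 36 RIP counts, or 3.60 and 2.51 CPM against 2.38 and 1.497 CPM. The groups of Fosb did not overlap, although RIP replicate 1 came close to input replicate 2. Its log2 fold change was -0.65 (SE 0.446, 95% interval -1.67 to 0.36, edgeR quasi-likelihood adjusted p = 0.365). With length and GC trends taken out of each library Fosb was called depleted, at -1.02.

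Of the remaining transcription factors, Ier2 was at a like level in all libraries and Atf3 was too rare to test. Ier2 had 184 and 208 input counts and 182 and 123 RIP counts, or 5.52 and 6.06 CPM against 7.21 and 5.11 CPM. Its RIP values lay on either side of the inputs, and the log2 fold change was 0.09 (95% interval -0.76 to 0.94, edgeR quasi-likelihood adjusted p = 0.896). Atf3, which is strongly induced by axon injury in ganglion cells, had 3 and 4 input counts and 3 and 0 RIP counts. These counts are at or near the floor of 3 counts per library, which covers counting error only, and no fold is given for Atf3.

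The feedback regulators Btg2 and Dusp1 also did not pass the test. Btg2 had 1732 and 1538 input counts and 1460 and 1631 RIP counts, or 52.0 and 44.8 CPM against 57.9 and 67.8 CPM. Each RIP library was above each input, and Btg2 was the 1 member with that pattern. Its log2 fold change was 0.38 (SE 0.332, 95% interval -0.38 to 1.13, edgeR quasi-likelihood adjusted p = 0.487), which lies at the 66.7th percentile of all tested transcripts. Dusp1 had 406 and 220 input counts and 174 and 175 RIP counts, or 12.2 and 6.41 CPM against 6.90 and 7.28 CPM. The RIP libraries were alike and lay between the inputs, of which replicate 1 was the higher. The log2 fold change of Dusp1 was -0.39 (SE 0.402, 95% interval -1.31 to 0.53, edgeR quasi-likelihood adjusted p = 0.560).

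The inputs differed from each other more than the RIP libraries did for Jund, Dusp1, Fos, Egr1 and Jun, and less for Fosb, Junb, Ier2 and Btg2. Over the 6858 genes that reached 50 counts in each library, the median absolute log2 difference was 0.567 for the input pair and 0.190 for the RIP pair. Jund, Dusp1 and Fos differed between inputs by -0.996, -0.93 and 0.70 on the log2 scale, more than that median, and Ier2, Btg2 and Junb by 0.14, -0.21 and -0.22. The log2 ratio of RIP to input had opposite signs in replicates 1 and 2 for Fos, Jun, Jund, Ier2 and Dusp1, which is 5 of the 9 tested members. Without input replicate 2 the log2 fold changes of Dusp1, Jund and Fos were -0.79, -0.60 and 0.74, and without input replicate 1 they were 0.14, 0.40 and 0.049. With a single input the spread of the model comes from the RIP pair alone, the input being assumed to vary alike, so that the adjusted p below 0.05 which these 3 had without input replicate 2 carries no weight.

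**Figure D4:**
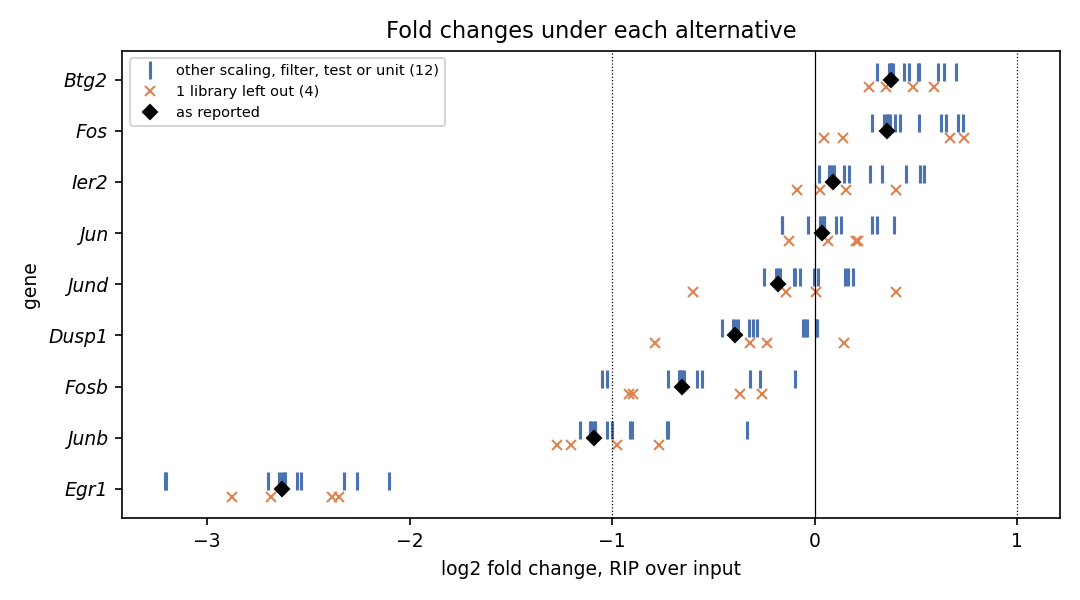
Log2 fold change of each tested early gene (x) as reported (diamonds), under 12 other scalings, filters, tests or units (bars) and with 1 library left out (crosses); dotted lines mark -1 and 1. Egr1 stays between -3.21 and -2.10, Btg2 and Fos stay above 0, and Jun, Jund, Ier2 and Dusp1 fall on both sides of 0.

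Some members overlap other genes, which could affect their counts because the kit keeps strand and the strand setting of the counting is not stated. The annotation places 351 bases of the Prdx2 gene on the opposite strand of Junb, and Prdx2 had a log2 fold change of -0.53. It likewise places 640 bases of Ergic1 on the opposite strand of Dusp1, with 2191 and 1057 input counts and 633 and 590 RIP counts of Ergic1. The overlaps are of whole gene spans, introns included. Within the shared bases, reads of these partners and of Junb or Dusp1 cannot be told apart if strand was ignored. The antisense gene Junos, opposite to Jun, had 13 and 9 input counts and 6 and 0 RIP counts, few beside those of Jun.

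From a list of 56 further immediate early genes, 47 were tested, of which 2 were called enriched and 7 depleted, and the median log2 fold change was -0.24, also with the gene at the floor set to its bound. These counts stand beside 9.43% enriched and 17.2% depleted over all tested transcripts. On library size alone there were 5 calls in each direction. At an adjusted p below 0.05 in edgeR's quasi-likelihood test, Klf4, Zfp36, Gadd45a and Cyr61 were lower and Rgs2 was higher. Klf4, a zinc finger factor, had 17 counts in each input and 0 in both RIP libraries, so that it was at least 4.13-fold lower against a floor of 3 counts per library (adjusted p = 0.0352). Zfp36, which binds AU-rich elements and speeds decay of the mRNAs that carry them, had 206 and 219 input counts and 49 and 39 RIP counts, a log2 fold change of -1.81 (adjusted p = 0.0197). Gadd45a, a growth arrest gene, stood at -1.55 (adjusted p = 0.0273) and Cyr61, a matricellular protein gene, at -1.53 (adjusted p = 0.0397), while Rgs2, a regulator of G protein signaling, stood at 1.29 (adjusted p = 0.0418). On log2(FPKM + 1) Zfp36 stood at -0.74 and Cyr61 at -0.87, and neither was called. With length and GC trends taken out Gadd45a stood at -0.41 and was not called. It was also not called without RIP replicate 1 (-1.29), nor was Cyr61 without RIP replicate 1 (-1.54) or RIP replicate 2 (-1.31).

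The direct paralogs of the members can be set beside them. Egr2 had 85 and 58 input counts and 31 and 18 RIP counts, with a log2 fold change of -1.10 (edgeR quasi-likelihood adjusted p = 0.198), and Egr3 had a value of -1.09 (adjusted p = 0.354). Both had values below 0, like Egr1, without passing the test as reported. Egr2 was called depleted with at least 10 counts in every library (-1.16). It was also called with length and GC trends taken out (-1.07), and with those trends and the replicate block (-1.09). No other fit to all 4 libraries called Egr2. Egr4 had no count in any library. Fosl1 had a log2 fold change of 0.67 (edgeR quasi-likelihood adjusted p = 0.550) and Fosl2 was too rare to be tested. Btg1, with 0.43 (adjusted p = 0.413), had nearly the value of Btg2, and Ier5, with 0.89 (adjusted p = 0.160), had a higher value than Ier2, a difference that was not tested.

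Genes that act around the members were counted in the same way. Of 18 AP-1 partners such as ATF and MAF factors, 14 were tested, 1 was called enriched and 2 depleted, with a median of -0.39. A list of 30 genes held chiefly factors that induce early genes, the serum response and CREB factors and the kinases upstream of them. It also held Nab1 and Nab2, which are of neither kind. All 30 were tested, with 4 enriched, Nab1 (1.28) among them, none depleted and a median of 0.30. Of the 30, Atf1 was higher at an adjusted p of 0.0236 (log2 fold change 1.80, edgeR). Of 17 phosphatases of the DUSP family, Dusp1 among them, 15 were tested, with 4 enriched, none depleted and a median of 0.42. Dusp18 (1.68, adjusted p = 0.0281) and Dusp16 (1.48, adjusted p = 0.0461) passed the adjusted threshold in edgeR's test. Dusp1, at -0.39 and not called, was itself 1 of the 6 of these 15 that were below 0. On log2(FPKM + 1) neither Dusp16 (0.96) nor Dusp18 (0.93) was called. Dusp16 was not called without RIP replicate 2 (1.36). The 14 BTG and TOB genes and deadenylase subunits, Btg2 among them, had 2 enriched, none depleted and a median of -0.02. The 13 genes listed for AU-rich element binding, which include Tnpo1 (0.92), not itself such a protein, had no enriched and 3 depleted genes. Their median was -0.31. The 3 depleted genes, Zfp36, Zfp36l1 (-2.56, adjusted p = 0.0238) and Elavl3 (-1.58, adjusted p = 0.0204), passed the adjusted threshold in edgeR's test. Without RIP replicate 1 Zfp36l1 stood at -3.71 and without RIP replicate 2 at -1.82. On log2(FPKM + 1) Elavl3 (-0.97) and Zfp36 (-0.74) were not called. The shares over all tested transcripts were 9.43% enriched and 17.2% depleted, and no list was tested against them.

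A last list holds 20 genes that dissociation of tissue is known to induce, chiefly heat shock, metallothionein and stress genes, and none of the members. Of these 15 were tested, 2 were called enriched and 4 depleted, beside 9.43% and 17.2% of all tested transcripts, and the median log2 fold change was -0.51. Mt1, a metallothionein, fell from 144 counts in each input to 8 and 11 in the RIP libraries (log2 fold change -3.45, edgeR quasi-likelihood adjusted p = 0.00326). Ddit3, a stress transcription factor (-1.88, adjusted p = 0.0490), and Hspe1, a mitochondrial chaperonin (-1.39, adjusted p = 0.0373), were lower as well, while Dnajb1, a heat shock cochaperone, was higher (1.42, adjusted p = 0.0400). With length and GC trends taken out, Hspe1 stood at 0.43 and Ddit3 at -0.34, and neither was called. On log2(FPKM + 1) Hspe1 stood at -0.98 and Ddit3 at -0.69, and again neither was called. Hspe1 was also not called without RIP replicate 1 (-1.08), nor Ddit3 without RIP replicate 2 (-1.66).

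**Figure D5:**
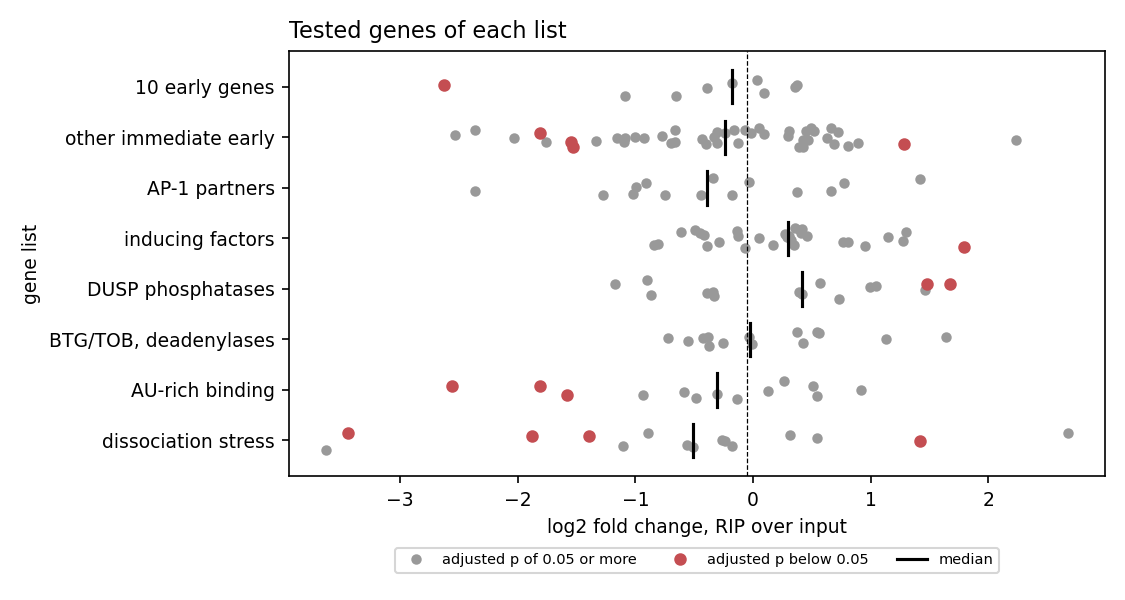
Log2 fold change of RIP over input (x) for the tested genes of the 10 early genes and of each related list (y), with red points for an adjusted p below 0.05, bars for list medians and a dashed line for the median of all tested transcripts (-0.05). Klf4, without counts in either RIP library, is left undrawn but counted in the median; Egr1 is the lowest of the 9 tested early genes and Mt1 the lowest red point of the dissociation list.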

How the data were processed

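Libraries of input and anti-YTHDF2 RIP RNA from P0 retina, 2 of each, were made with a stranded kit. The authors deposited raw read counts per gene and FPKM values, which they scaled for gene length and library size. The submitters' processing notes name STAR 2.5, HTSeq and GRCm38, and their settings are not given in the sources used here. Groups and replicate numbers came from the sample titles. The members and all gene lists were chosen with earlier results of these data known.

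Low counts were removed by filterByExpr with a minimum count of 10 and a minimum total of 15, which does not require 10 counts in every library. The quasi-likelihood test (glmQLFit, glmQLFTest) of edgeR 4.0.16 in R 4.3.3 was run over all remaining genes after TMM scaling, and p-values were adjusted by Benjamini-Hochberg. Positions, lengths, exons and motifs came from GENCODE M21, which held 52403 of the 52550 identifiers. From each list, genes with an adjusted p below 0.05 (at most the 4 largest rises and falls) were named, together with paralogs of members. Prdx2, Ergic1 and Junos lie outside this rule and were named because they overlap members.

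By the series design an input and a pulldown belong to each replicate, and the same number therefore pairs them. The replicate differences of inputs and RIP libraries had a Spearman correlation of -0.0641 over 6858 genes. Alternatives in scaling were library size, upper quartile or TMM without small noncoding, ribosomal RNA and mitochondrial genes. Others were DESeq2 1.42.0, 2 other filters, the exact test of edgeR, a replicate block, and each library left out. Limma 3.58.1 was run on log2(FPKM + 0.1) and log2(FPKM + 1) at a mean FPKM of at least 0.1. Length and GC trends were taken as offsets (mgcv 1.9.3) with and without the block. Fits were tested on simulated data.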

Additional observations from a re-analysis of the deposited data

How the results depend on the processing

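The number of members called depleted, 2 as reported, was 1 with DESeq2, on library size alone, on log2(FPKM + 0.1) and on log2(FPKM + 1), and 1 to 2 with 1 library left out. The number at an adjusted p below 0.05, 1 as reported, was 0 to 4 with 1 library left out. The median of the members, -0.18 as reported, was 0.19 on library size alone, 0.17 on log2(FPKM + 0.1), 0.15 on log2(FPKM + 1) and 0.013 with length and GC trends and the replicate block, and ranged from -0.60 to 0.049 with 1 library left out. Library size alone moved the median of all tested transcripts from -0.05 to 0.27, so that fold changes under it are relative to that shift. The share of all calls that were enriched was 35.4% as reported, 57.7% on library size alone, 45.6% on log2(FPKM + 0.1) and 47.1% with the trends. Signs turned for Jun with at least 10 counts in every library (-0.031), with the trends (-0.16) and with trends and block (-0.16), and it ranged from -0.13 to 0.22 with 1 library left out. For Jund they turned on library size alone (0.19), on log2(FPKM + 0.1) (0.17), on log2(FPKM + 1) (0.15) and with trends and block (0.016), with -0.60 to 0.40 where a library was left out. Dusp1 stood at 0.0065 with the trends and 0.013 with trends and block, and at -0.79 to 0.14 with 1 library left out, and Ier2 ranged from -0.087 to 0.40 there. Hspe1 stood at 0.43 with the trends and 0.42 with trends and block.

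Of the 47 further early genes, 2 were called enriched as reported, 5 on library size alone, and 1 with DESeq2, with at least 10 counts, on log2(FPKM + 1) and with trends and block, and 1 to 5 with 1 library left out. Depleted calls were 7 as reported, 5 on library size alone, 1 on log2(FPKM + 1) and 3 to 11 with 1 library left out. Depleted calls rose to 10 with the exact test of edgeR, and to 8 with upper quartile factors and with the replicate block. The causes of these changes were not tested. Klf4, Mt1 and Egr3 gave no value under some filters or units. A replicate block alone changed no call of a member (Egr1 -2.62). Of the 14 other named genes with an adjusted p below 0.05, 1 (Zfp36l1) kept it without RIP replicate 1 and 0 without RIP replicate 2, fits in which the inputs alone give the spread. With all 4 libraries in the fit, 5 of these 14 kept an adjusted p below 0.05 with no filter on low counts. On library size alone, on log2(FPKM + 0.1) and on log2(FPKM + 1), 8 of the 14 kept it in each. Each of the other full fits kept 10 to 14. A gene without a value under a setting was counted as not kept. There were 2 libraries a group, and Junb, Fosb and Atf3 had few counts.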
